A study of Mus musculus with 11 samples.

Results

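The genes described here are 10 immediate early genes around the transcription factor AP-1: the subunits Jun, Junb, Jund, Fos, Fosb and Atf3, the zinc finger transcription factors Egr1 and Klf6, the nuclear protein Ier2, and the mRNA decay factor Zfp36. They were picked by symbol, and all 10 were found among the 28692 genes of the feature lists. They were followed in tubular, stromal, endothelial and immune cells of mouse kidney by droplet single-cell RNA sequencing of transcript 3′ ends (10x Chromium). The 11 libraries came from male C57Bl/6 mice of which the injured ones were operated at 10 weeks of age. Controls (5 libraries, Ctrl, N1, N2, AN1 and AN2) were kidneys of naive mice matched for age, strain and sex, run in 3 batches. UIR kidneys (3 libraries, UIR, UIR1 and UIR2) had 30 minutes of left renal pedicle clamping followed by reperfusion. UUO kidneys (3 libraries, UUO, UUO1 and UUO2) had a permanent ligation of the left ureter. Injured kidneys were taken at day 28, and cells of all groups were freed with a protease that works in the cold. No batch is stated for the UIR and UUO libraries, so batch and injury cannot be told apart.

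AP-1 is a dimer of a Jun protein with a Fos, an ATF or another Jun protein that binds short palindromes in promoters and enhancers. Its genes are called immediate early because growth factors, stretch or lack of oxygen switch them on within minutes, through MAP kinases and transcription factors already present in the cell, and because their transcripts decay fast. Egr1, Ier2 and Klf6 respond in the same window, and the Zfp36 protein binds AU-rich elements and speeds the decay of such transcripts. In kidney tubules these genes are known as part of the early response to ischemia and obstruction, so their levels weeks after injury are of interest.

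The RefSeq promoter table (GRCm38.p6) held 8 of the 10 members, without Egr1 and Ier2. The 250 bases before the start were searched on both strands for CArG boxes, which bind serum response factor, for the AP-1 and ATF motifs TGANTCA and TGACNTCA, for TATAAA and for GCGTGGGCG, the Egr1 site. Matches were found in 4 members, whose sequences are printed. Elements further upstream were not searched, so a member without a match may hold such an element there. The RefSeq start also differed from the annotated gene start in some members. The Jund window (chr8:70697489-70697738) ended well before the annotated gene, which starts at base 70698949, and the bases between were not searched. The windows of Zfp36 and Atf3 lay inside the annotated gene. A share of promoters is given for each motif and not for any of them together. Jun and Klf6 carried the same 8 letters, TGACATCA, which match TGACNTCA, a motif in 7.49% of 32851 promoters. Fos carried TATAAA (12.4% of promoters) and Zfp36 a CArG box (1.47%). TGANTCA was held by 6.75% of promoters and GCGTGGGCG by 0.536%, and neither stood in a member's window. Each sequence runs 5′ to 3′ on the gene's strand and ends at the base before the RefSeq start, with the match in capitals. A match is a description of these letters and not a shown binding site.
Jun, minus strand, chr4:95052223-95052472: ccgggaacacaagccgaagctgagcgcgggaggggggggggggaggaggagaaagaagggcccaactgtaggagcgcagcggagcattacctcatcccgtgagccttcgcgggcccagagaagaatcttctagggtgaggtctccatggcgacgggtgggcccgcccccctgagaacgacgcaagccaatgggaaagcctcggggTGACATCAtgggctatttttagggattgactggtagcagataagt
Klf6, plus strand, chr13:5861239-5861488: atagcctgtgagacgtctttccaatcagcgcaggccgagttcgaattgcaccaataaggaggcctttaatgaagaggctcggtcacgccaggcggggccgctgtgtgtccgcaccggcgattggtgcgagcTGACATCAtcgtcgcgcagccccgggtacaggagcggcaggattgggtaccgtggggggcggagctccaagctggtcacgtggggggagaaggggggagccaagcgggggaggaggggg
Fos, plus strand, chr12:85473640-85473889: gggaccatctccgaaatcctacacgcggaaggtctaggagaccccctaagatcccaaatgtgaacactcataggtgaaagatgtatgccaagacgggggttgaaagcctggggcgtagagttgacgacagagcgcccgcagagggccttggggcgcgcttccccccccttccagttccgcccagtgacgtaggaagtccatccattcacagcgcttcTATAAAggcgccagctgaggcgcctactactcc
Zfp36, minus strand, chr7:28379229-28379478: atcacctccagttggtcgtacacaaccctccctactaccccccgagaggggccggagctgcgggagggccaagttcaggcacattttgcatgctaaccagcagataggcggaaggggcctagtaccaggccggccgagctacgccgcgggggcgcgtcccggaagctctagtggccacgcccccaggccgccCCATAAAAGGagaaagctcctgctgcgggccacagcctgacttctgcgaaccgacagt

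In the GRCm38 build with the GENCODE M21 annotation, Jun is a single-exon gene at chr4:95049034-95052222, and Jund (chr8:70698949-70700616) and Ier2 (chr8:84661331-84662852) also have 1 exon. Junb lies at chr8:84974484-84978718, Fos at chr12:85473890-85477273, Fosb at chr7:19302696-19310051, Atf3 at chr1:191170296-191218039, Egr1 at chr18:34859823-34864984, Zfp36 at chr7:28376784-28380253 and Klf6 at chr13:5861482-5870394. Jun, Junb, Jund and Zfp36 each overlap a counted gene on the other strand (Junos, Prdx2, Gm11175 and Gm44710), and whether the counting used the strand is not given in the sources used here, so reads of these partners may not be separated.

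After filtering, 40588 cells were kept, between 1858 and 7443 per library, and no more than 18 cell barcodes were shared by any pair of libraries. Cells were clustered without the members and named from markers: proximal tubule (PT), loop of Henle (LOH), distal tubule (DT), collecting duct principal (CD-P) and intercalated (CD-I) cells, failed-repair tubular epithelial cells (frTEC), endothelium (Endo), fibroblast classes, macrophages (Macro) and other immune classes. UMIs were summed per library and class into pools of at least 20 cells, levels are CPM, the counts of a gene scaled to the same total of UMIs in every pool, and log2 fold changes come from the quasi-likelihood test of edgeR, whose p-values were adjusted over all genes tested in a class (Benjamini-Hochberg) and called under 0.05. Mitochondrial UMIs took 15.8% to 24.9% of control pools of LOH, DT, CD-P and CD-I and 8.99% to 15.8% of the injured ones, and the counts of higher pairs given below were 31 and 32 also with mitochondrial genes left out of the fit. The limit of 30% mitochondrial UMIs set for cells had removed 57.0% to 78.8% of the barcodes called in each control library, 23.9% to 37.2% in UIR and 3.15% to 8.02% in UUO, so the part of the barcodes kept followed the groups compared, and what this adds to the differences was not tested beyond limits of 15% and 50%. Control library N2 was high for several members. Without it, 36 pairs were higher in UIR and 39 in UUO (6.15% and 7.55% of all genes), and the pairs this adds are given with their gene. N2 was singled out because it was high, so more higher pairs were favoured by this choice. With single libraries left out in turn, higher pairs ran from 24 to 36 in UIR and from 26 to 39 in UUO. Where a class holds fewer cells or less RNA per cell, the CPM does not tell these apart.

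In control kidneys more members stood above the average class in endothelium and macrophages, and more stood below it in PT and DT. Of 9 members tested over 10 classes, 8 were higher in Endo than the mean of the other classes, where 34.3% of 10335 genes were, and 7 were higher in Macro, where 25% were. Conversely, 6 were lower in DT (13.2% of genes) and 5 in PT (21.7%). Of these calls, Egr1 in Endo was lost without Ctrl or AN1 (from 0.66 to 1.15, adjusted p from 0.0505 to 0.169), Fos in Endo without Ctrl (1.20, adjusted p = 0.0623) and Jund in DT without Ctrl (-0.16, adjusted p = 0.293). With cells over 15% mitochondrial UMIs left out, 5 classes remained and Jund in DT stood at 0.029. Jun averaged 412 ± 82.7 CPM in Endo (SD, n = 5), 254 ± 62.4 in Macro, 121 ± 79.0 in LOH, 62.6 ± 39.3 in DT and 24.0 ± 24.7 in CD-P. The Endo range of Jun lay above that of Macro, while the ranges of neighbours further down overlapped. Klf6 ran from 241 ± 37.0 in Macro and 160 ± 23.6 in Endo to 34.2 ± 7.08 in DT and 20.8 ± 1.67 in PT, and its PT range lay below that of every other class. Jund ran from 203 ± 30.6 CPM in PT to 647 ± 72.9 in T/NK cells, with 2 frTEC pools at 729 and 951.

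Both injuries went with higher members in the distal tubular classes. Over 9 classes, 78 pairs of member and class were tested for UIR against control, of which 31 were higher and 1 was lower, while 6.96% of all genes in these classes were higher and 6.56% lower. Over 10 classes, 84 pairs were tested for UUO, of which 32 were higher and 1 was lower (8.26% and 8.37% of all genes). Both comparisons use the same 5 controls. With cells over 15% mitochondrial UMIs left out, 44 pairs could be tested in each, of which 11 and 10 were higher (4.11% and 5.59% of all genes), and CD-P, CD-I and frTEC were not among the 5 classes left. At a limit of 50%, 33 and 34 pairs were higher (9.21% and 10.6%). Empty droplets held 7 of the 10 members at higher levels in every injured library than in any control, as they did 19.8% of the 16275 genes with at least 10 UMIs there. With this free RNA subtracted from the pools, 27 and 29 pairs were higher (6.32% and 7.61% of all genes). The pairs lost were Egr1 and Junb in PT in both injuries, Klf6 in PT and Atf3 in DT of UIR, and Junb in Endo of UUO. In 13 pairs of each injury the filter on low counts was met only with the injured pools, since the controls alone fell short of it, so a rise was favoured by the choice of genes tested. Among the higher pairs these were Atf3 in LOH, DT and CD-P, Egr1 in DT and PT and Fos in CD-I, and in UIR also Fos in PT. Without the pairs that met the filter in this way, 24 of 65 were higher in UIR and 26 of 71 in UUO. The shares of all genes given here still include genes that met it in this way. No share without those genes is given, so these reduced counts have no matching background. Fosb had too few UMIs to be tested within any class. In LOH 6 of 9 members were higher in UIR, against 14.8% of all genes, and 6 in UUO, against 15.3%. In DT it was 7 and 7 (background 17.2% and 21.1%), in CD-P 4 and 5 (9.79% and 16.2%), and in CD-I 6 and 6 (5.92% and 11%). Without the pairs named above, the counts were 5 and 5 of 8 in LOH, 5 and 5 of 6 in DT, 3 and 4 of 8 in CD-P and 5 and 5 of 7 in CD-I. These, too, have no matching share of all genes. In frTEC 2 and 3 members were higher (3.59% and 2.45%), and in PT 4 and 2 of 8 (6.83% and 1.89%). Macro had 2 higher in each injury (3.5% and 5.29%) and 1 lower in each (lower in the background: 2.7% and 5.05%). Endo had 0 in UIR (1.1%) and 1 in UUO (5.89%), which is close to the background. T/NK cells had 0 of 7 in both (0.28% and 1.07%), and Fibro 3, compared for UUO only, had 0 of 6 (0.719%).

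**Figure D1:**
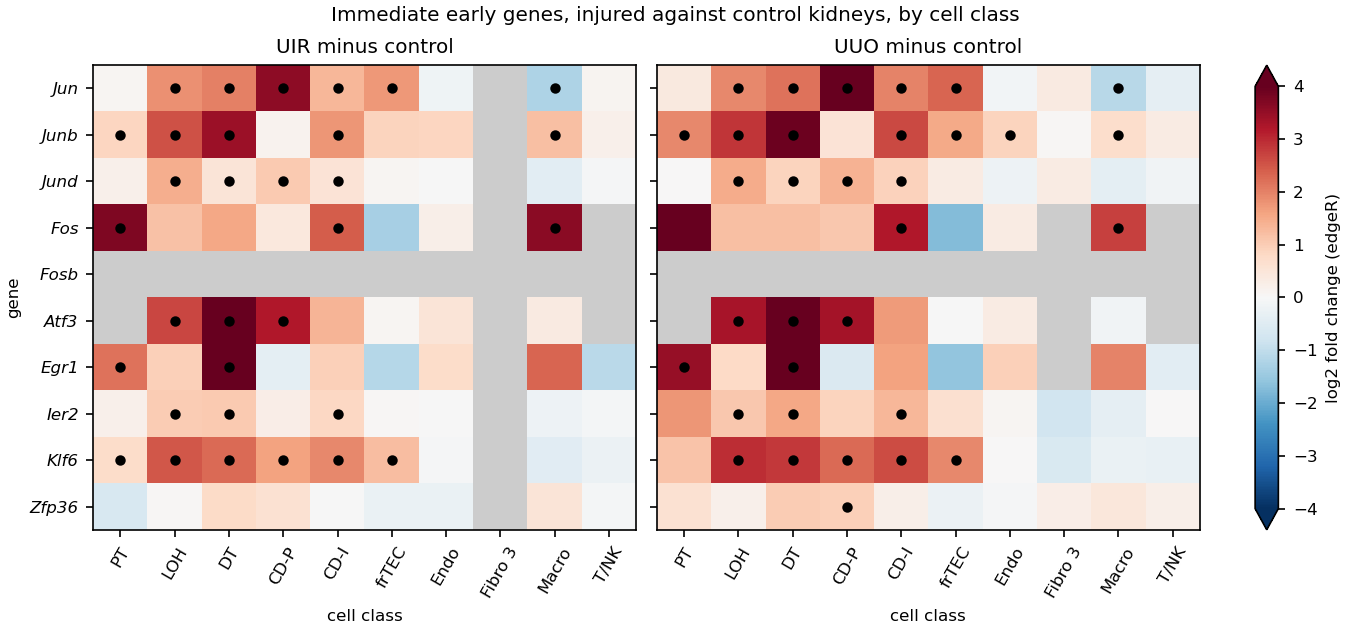
Log2 fold changes of the members (rows) in each class (columns) for UIR against control and UUO against control, from red (higher in the injured kidneys) to blue (lower). Dots mark adjusted p-values under 0.05 and grey marks pairs not tested. In both panels the marked squares gather in LOH, DT, CD-P and CD-I, and Endo, T/NK and Fibro 3 hold 1 dot in all.

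Jun, the founding subunit of AP-1, was the member with the steepest rise in CD-P cells. Its control pools there read 67.7, 11, 14.7, 8.71 and 18.0 CPM in Ctrl, N1, N2, AN1 and AN2, the UIR pools 388, 331 and 278, and the UUO pools 551, 494 and 606. All 6 injured pools lay above all 5 controls, of which Ctrl was the highest. The log2 fold change was 3.58 ± 0.32 (SE) for UIR (adjusted p = 5.93e-08) and 4.30 ± 0.32 for UUO (adjusted p = 9.02e-10). In LOH, control pools read 95.1, 48.0, 252, 78.7 and 131 CPM, UIR pools 540, 479 and 615, and UUO pools 632, 666 and 460. N2 was the highest of the controls and still below every injured pool. Jun in LOH rose by 1.81 ± 0.25 on the log2 scale in UIR (adjusted p = 4.85e-06) and by 1.92 ± 0.25 in UUO (adjusted p = 2.10e-06). Jun also rose in DT (2.0 and 2.17), CD-I (1.32 and 1.99) and frTEC (1.73 and 2.32), the last against 2 control pools only. The frTEC call in UIR was lost without Ctrl (1.17, adjusted p = 0.14). Leaving out Ctrl or AN2 leaves 1 control pool in frTEC, which is then assumed to vary like the pools of the other groups, here and in each frTEC value given without them. In PT it did not pass the test, with 99.8 ± 44.7 CPM in controls, 107 ± 42.7 in UIR and 165 ± 31.2 in UUO. Macrophages went the other way: control pools read 170, 213, 297, 265 and 324 CPM, while the 6 injured pools lay between 93.4 and 129. The fall was -1.23 ± 0.18 in UIR (adjusted p = 0.000146) and -1.12 ± 0.18 in UUO (adjusted p = 0.000144). Macrophages came from 2 clusters with median depths of 6538.5 and 796 UMIs per cell, and the deeper held 67.9% of control but 34.3% of UIR and 33.1% of UUO cells. Within the deeper cluster, Jun read 186, 230, 306, 288 and 340 CPM in controls and 102 to 146 in the 6 injured libraries, so the groups were apart there too. In the shallower one the 3 control pools of at least 20 cells read 75.4, 115 and 45.9 CPM and the injured ones 59.1 to 92.0, which overlapped.

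Junb, a Jun paralog, rose in LOH, DT, CD-I, PT and macrophages in both injuries. In LOH its controls read 3.17, 14.4, 61.0, 10.9 and 43.8 CPM, against 190, 218 and 206 in UIR and 344, 228 and 201 in UUO. No injured pool overlapped the controls, and the log2 fold change was 2.53 ± 0.32 for UIR (adjusted p = 1.58e-06) and 2.87 ± 0.32 for UUO (adjusted p = 2.18e-07). In DT all 5 controls were at or under 13.9 CPM and the injured pools ran from 70.4 to 228, with log2 fold changes of 3.41 and 3.93. The change in CD-I was 1.75 ± 0.35 in UIR and 2.64 ± 0.34 in UUO. In PT, where controls read 7.47 to 18.2 CPM, it was 0.85 ± 0.23 in UIR, a call lost without UIR2 (0.69, adjusted p = 0.0882) and with free RNA subtracted (0.41, adjusted p = 0.404). The PT change in UUO was 1.91 ± 0.49, lost without UUO, UUO1 or UUO2 (from 1.82 to 2.02, adjusted p from 0.0843 to 0.319) and with free RNA subtracted (1.87, adjusted p = 0.10). In frTEC only UUO passed (1.53 ± 0.27), and not without Ctrl (1.21, adjusted p = 0.114). In CD-P, where N2 read 360 CPM and the other controls 83.5 to 115, Junb did not pass the test (0.15 ± 0.35 in UIR, 0.56 ± 0.35 in UUO). Without N2 it was called there in UUO (1.06, adjusted p = 0.00277) and not in UIR. In macrophages it was 144 ± 37.3 CPM in controls, 337 ± 34.3 in UIR and 253 ± 71.7 in UUO, a rise of 1.19 ± 0.19 and 0.71 ± 0.19 (adjusted p = 0.000356 and 0.0199). Macrophages thus held more Junb and less Jun in the same pools. Junb was also the 1 member called in Endo, at 0.90 ± 0.27 in UUO (adjusted p = 0.0309), while UIR gave 0.85 ± 0.27 (adjusted p = 0.134). The Endo call was lost without Ctrl, N2, AN2, UUO or UUO2 (from 0.74 to 0.89, adjusted p from 0.0533 to 0.147) and with free RNA subtracted (0.85, adjusted p = 0.0641). The macrophage call in UUO was lost without Ctrl, N1, AN1, UUO or UUO2 (from 0.54 to 0.67, adjusted p from 0.0528 to 0.11).

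Jund, the Jun paralog that most cells hold at rest, was called higher in LOH, DT, CD-P and CD-I in both injuries. In LOH its controls read 225, 182, 229, 212 and 250 CPM, the UIR pools 784, 617 and 828, and the UUO pools 874, 750 and 616. The groups were far apart for their narrow spread, and the log2 fold change was 1.46 ± 0.15 in UIR and 1.47 ± 0.15 in UUO (adjusted p = 7.91e-08 and 6.45e-08). It rose by 1.04 and 1.38 in CD-P, 0.55 and 0.93 in CD-I and 0.50 and 0.90 in DT, where the UIR range overlapped the controls. The DT call in UIR was lost without Ctrl, N1, N2, UIR or UIR2 (from 0.35 to 0.51, adjusted p from 0.0619 to 0.155). That in CD-I of UIR was lost without UIR or UIR2 (from 0.51 to 0.54, adjusted p from 0.056 to 0.0632). In frTEC, PT, Macro, Endo and T/NK it did not pass the test.

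Klf6, a Krüppel-like zinc finger factor, rose in the largest number of classes in UIR, 6 of 9. LOH controls read 34.9, 24.0, 68.6, 38.0 and 30.9 CPM, UIR pools 271, 251 and 327, and UUO pools 326, 490 and 353. The groups did not overlap, and the log2 fold change was 2.50 ± 0.21 in UIR (adjusted p = 3.87e-09) and 2.96 ± 0.21 in UUO (adjusted p = 2.33e-10). The DT change was 2.28 in UIR and 2.84 in UUO, the CD-I change 1.91 and 2.61, the CD-P change 1.62 and 2.27 and the frTEC change 1.23 and 1.93. The frTEC call in UIR was lost without Ctrl, AN2 or UIR2 (from 1.12 to 1.28, adjusted p from 0.0513 to 0.182). The same call in UUO was lost without AN2 (1.89, adjusted p = 0.0575). In PT, controls lay between 18.7 and 22.8 CPM and UIR pools at 31.8, 31.5 and 42.4, a rise of 0.75 ± 0.15 (adjusted p = 0.00126), lost with free RNA subtracted (0.56, adjusted p = 0.054). The UUO pools of PT, made of 143 cells in all, read 199, 59.0 and 38.1 CPM and did not pass (1.15 ± 0.36, adjusted p = 0.0843). In macrophages, where controls were highest, it was 241 ± 37.0 CPM in controls, 177 ± 15.1 in UIR and 207 ± 21.4 in UUO, and neither change passed.

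**Figure D2:**
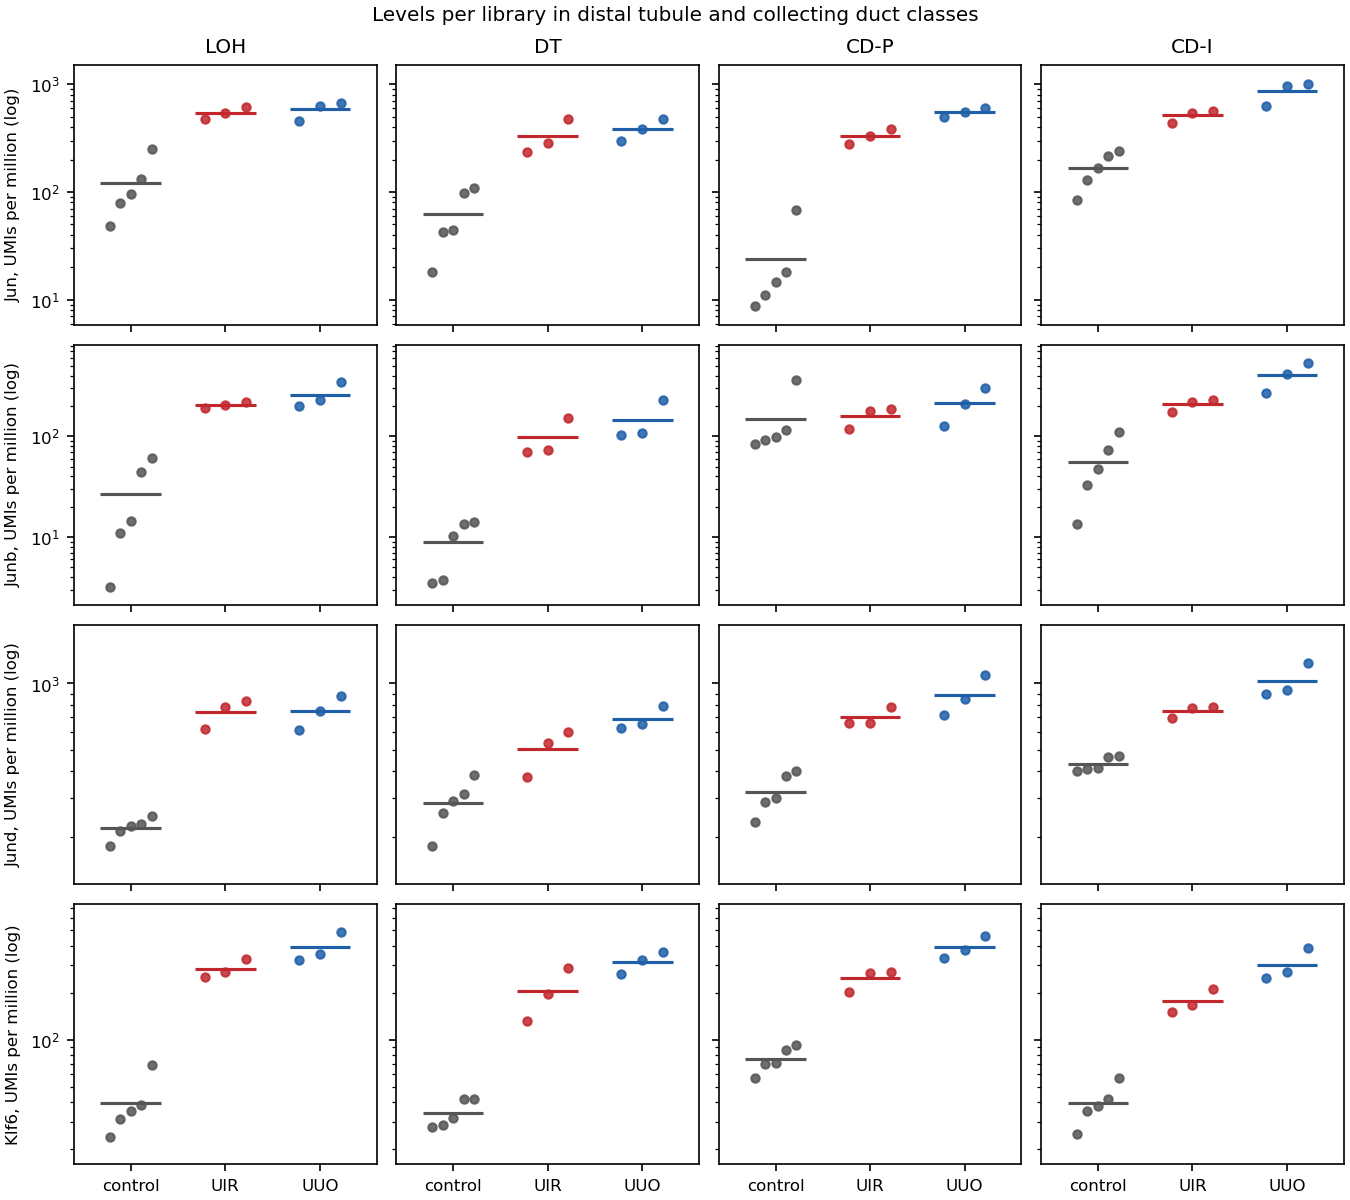
Levels of Jun, Junb, Jund and Klf6 in each pool (1 point per library, CPM on a log axis) of LOH, DT, CD-P and CD-I cells in control, UIR and UUO kidneys, with group means as lines. Points of both injured groups lie above the controls in LOH for all 4 genes, and Junb in CD-P is the panel where the groups overlap most.

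Fos, the classical partner of Jun, was low and uneven. In CD-I, controls read between 5.03 and 27.7 CPM, UIR pools 91.6, 52.6 and 109, and UUO pools 86.1, 61.6 and 309, a rise of 2.41 ± 0.59 and 3.21 ± 0.57 (adjusted p = 0.00815 and 0.000201). There Fos met the filter on low counts only with the injured pools, which favoured a rise. In macrophages, controls read 3.62, 16.4, 22.8, 8.69 and 12.5 CPM, UIR pools 192, 129 and 131, and UUO pools 101, 26.6 and 131. All 6 injured pools lay above the controls, with log2 fold changes of 3.61 ± 0.55 and 2.73 ± 0.59 (adjusted p = 0.000202 and 0.00324). Within the deeper macrophage cluster, Fos read 0 to 25.5 CPM in the 5 controls and 30.6 to 225 in the injured libraries, which did not overlap. Junb there ran from 119.96 to 215 CPM over the controls, and the UIR libraries lay apart from them at 331 to 421 CPM, while the UUO range of 195 to 340.5 CPM overlapped them. In the shallower cluster the 3 control pools held 1 UMI of Fos in all (25.1, 0 and 0 CPM) and Junb at 0, 115 and 91.7 CPM, against 14.3 to 83.0 and 96.1 to 186 in the injured libraries, and both genes overlapped between groups. In PT, Fos was at or under 0.945 CPM in controls and 3.8 to 6.83 in UIR, called at 3.74 ± 0.53 (adjusted p = 1.73e-05) on few UMIs. No control pool reached the low-count limit of 1.58 CPM there. Empty droplets held Fos at 1.11 to 7.88 CPM in controls and 11.7 to 48.6 in injured libraries, and the share of free RNA estimated for the PT pools would give 0.103 to 0.567 CPM in controls and 1.63 to 3.05 in UIR. With free RNA subtracted the value was 3.94 (adjusted p = 0.00233). In LOH it was 16.0 ± 20.8 CPM in controls, 50.8 ± 9.71 in UIR and 49.0 ± 22.8 in UUO, and did not pass (adjusted p = 0.0571 and 0.0603). Without N2, Fos was called in LOH (2.29 and 2.31), in CD-P (1.62 and 2.25) and in PT of UUO (5.04), and single other libraries also brought LOH past the threshold when left out. Fosb, its paralog, stayed at or under 6.59 CPM in every control pool and at or under 40.2 in every injured pool, the highest being a Fibro 2 pool of UUO.

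Atf3, a stress-induced member of the ATF family, rose in LOH, DT and CD-P in both injuries. No UMI was found in DT in any of the 5 controls, while UIR pools read 8.08, 1.14 and 12.6 CPM and UUO pools 32.8, 18.1 and 3.68. Against a floor of 3 counts over the control group (1.28 CPM), the mean was at least 5.67-fold higher in UIR and at least 14.2-fold higher in UUO (adjusted p = 0.0265 and 0.00168, for a gene that entered the test through the injured pools). Empty droplets held Atf3 at 0.384 to 5.8 CPM in controls and 7.67 to 28.3 in injured libraries, of which the estimated free RNA of the DT pools would give 0.582, 1.60 and 1.51 CPM in UIR and 0.400 to 0.763 in UUO. With free RNA subtracted the UIR call was lost (adjusted p = 0.0589) and that in UUO was not (adjusted p = 0.00506). By the fitted values the UIR call was lost without Ctrl, AN2 or UIR2 (from 5.49 to 6.34, adjusted p from 0.0606 to 0.0748). The bounds also moved with single libraries, to 3.74-fold without Ctrl and 3.59-fold without UIR2 in UIR, and to 9.36-fold without Ctrl and 8.49-fold without UUO in UUO, and the lowest UIR pool lay under the floor. In LOH, controls read 0 to 5.08 CPM and injured pools 11.8 to 36.6, with log2 fold changes of 2.68 ± 0.73 in UIR and 3.31 ± 0.70 in UUO (adjusted p = 0.00685 and 0.000711). In CD-P the change was 3.22 ± 0.72 and 3.33 ± 0.71. In LOH and CD-P, as in DT, Atf3 met the filter on low counts only with the injured pools. In CD-I Atf3 was called only when a library was left out, at 2.70 in UIR and 3.06 in UUO without N2, and in UUO also without UIR2 or UUO1 (1.73 and 2.27). Macrophages held the most Atf3 among control classes, 61.2 ± 30.1 CPM, and did not differ by the test (77.4 ± 3.60 in UIR, 57.7 ± 12.1 in UUO).

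Egr1, a zinc finger factor induced through serum response factor, rose in DT, from 0, 0, 15.4, 2.78 and 0 CPM in controls to 32.3, 74.4 and 148 in UIR and 140, 71.8 and 45.1 in UUO. Its log2 fold change was 4.45 ± 0.74 and 4.43 ± 0.75 (adjusted p = 4.66e-05 and 4.26e-05). In DT, Egr1 met the filter on low counts only with the injured pools, which favoured a rise. It also rose in PT, from at most 3.37 CPM in controls to 4.61, 5.07 and 10.5 in UIR and 85.3, 19.7 and 11.7 in UUO (2.16 ± 0.43 and 3.49 ± 0.96, adjusted p = 0.000986 and 0.048). The filter on low counts was met there, too, only with the injured pools. The UUO pools of PT held 35, 26 and 82 cells with 35181, 50819 and 341010 UMIs of all genes, so their Egr1 levels rest on few UMIs. Empty droplets held 1.05 to 9.64 CPM of Egr1 in controls and 19.6 to 112 in injured libraries, and the free RNA estimated for the UIR pools of PT would give 4.47, 2.73 and 4.25 CPM. With free RNA subtracted neither PT call passed (1.57 and 3.84, adjusted p = 0.185 and 0.17). The PT call in UUO was lost without Ctrl, N1, AN1, UIR, UUO, UUO1 or UUO2 (from 2.96 to 4.34, adjusted p from 0.0517 to 0.256). In LOH, CD-P and CD-I the control N2 alone read 224, 805 and 149 CPM against at most 67.9, 82.1 and 26.1 in the other controls, and Egr1 passed in none of them. Without N2 it was called in LOH (1.91 and 1.74, adjusted p = 0.00177 and 0.00454), in CD-I (2.87 and 3.52, adjusted p = 0.0161 and 0.00124) and in CD-P of UIR (1.24, adjusted p = 0.0435). It was also called in LOH of UIR without UIR (1.22) and in CD-I of UUO without UUO1 (2.03). Ier2, which codes for a nuclear protein of the same early wave, rose in LOH (1.0 ± 0.32 and 1.09 ± 0.33), DT (1.06 ± 0.36 and 1.54 ± 0.36) and CD-I (0.83 ± 0.25 and 1.31 ± 0.25). In LOH its controls read 15.9 to 36.1 CPM apart from N2 at 71.2, the UIR pools 79.8, 91.7 and 80.6 and the UUO pools 127, 77.1 and 57.7, so N2 overlapped the UUO range. Among the UIR calls, Ier2 in LOH was lost without Ctrl, N1 or AN1 (from 0.83 to 0.91, adjusted p from 0.0500123 to 0.0738). In DT it was lost without Ctrl, AN1, AN2 or UIR2 (from 0.77 to 1.13, adjusted p from 0.0544 to 0.135). In CD-I it was lost without Ctrl, AN1, AN2, UIR or UIR2 (from 0.70 to 0.85, adjusted p from 0.0612 to 0.119). The LOH call in UUO was lost without UUO (0.70, adjusted p = 0.0722). In the classes without a call Ier2 ran from -0.21 in Macro to 0.28 in CD-P in UIR and from -0.76 in Fibro 3 to 1.77 in PT in UUO (adjusted p = 0.0981). In CD-P Ier2 was called in UUO only without N2 (1.39) or UUO1 (1.27).

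Zfp36 had the fewest calls of the 9 members tested. It was called once, in CD-P of UUO kidneys, where controls read 15.8, 24.2, 44.1, 17.4 and 22.9 CPM and UUO pools 58.4, 31.9 and 52.7, so that the ranges overlapped at N2 (0.97 ± 0.28, adjusted p = 0.00972). It was lost without UUO (0.71, adjusted p = 0.076). Elsewhere its log2 fold change ran from -0.64 in PT (adjusted p = 0.0749) to 0.78 in DT in UIR, and from -0.24 in frTEC to 1.0 in DT in UUO (adjusted p = 0.0708). In LOH it was 21.2 ± 11.9 CPM in controls, 28.4 ± 5.92 in UIR and 30.6 ± 7.62 in UUO.

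**Figure D3:**
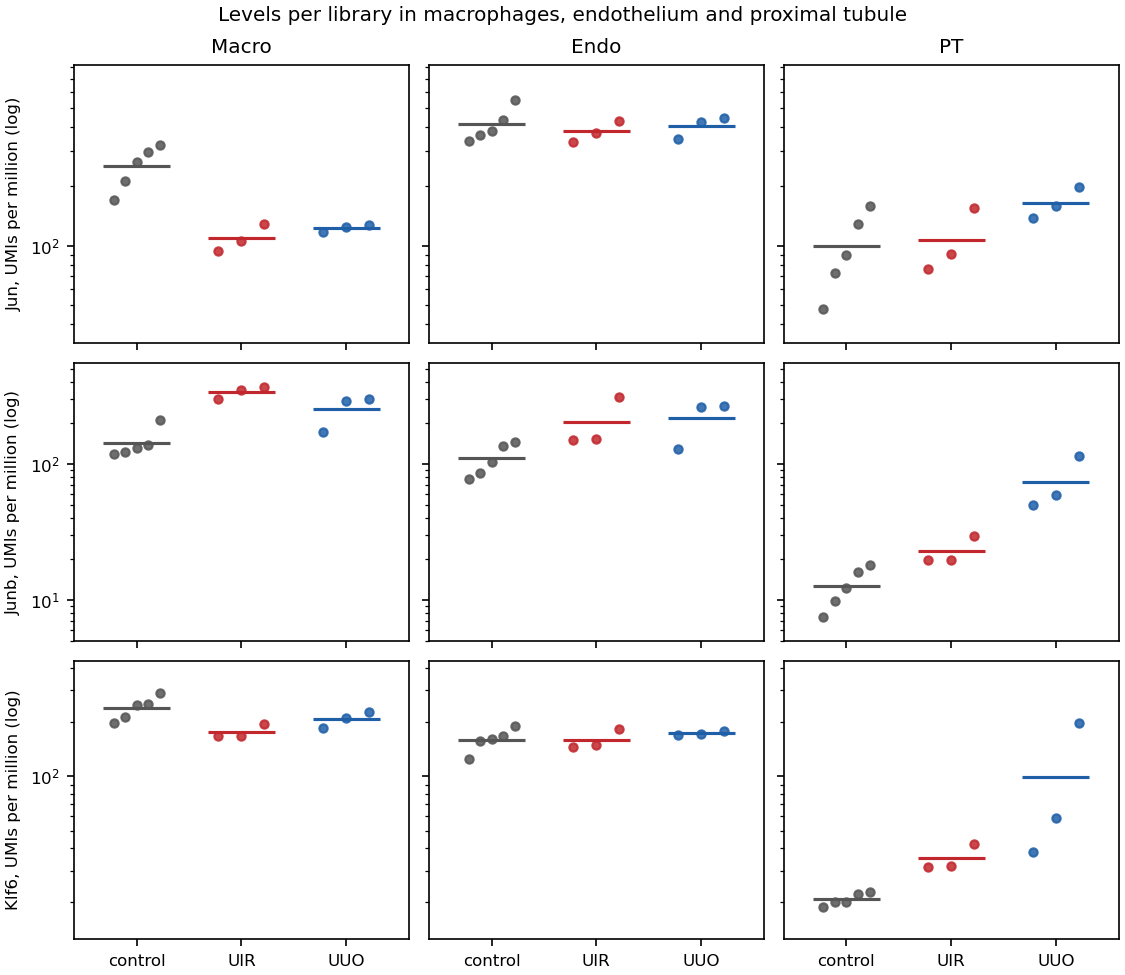
Levels of Jun, Junb and Klf6 in each pool (1 point per library, CPM on a log axis) of macrophages, endothelial cells and PT cells in control, UIR and UUO kidneys, with group means as lines. In macrophages the injured points lie below the controls for Jun and above most of them for Junb, and in Endo the groups overlap for Jun and Klf6.

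The distal classes were not made of the same clusters in each group. Of control LOH cells, 85.3% fell in 1 cluster, which held 3.46% of UIR and 0.350% of UUO LOH cells, and the largest control cluster held 63.9%, 3.7% and 2.92% of DT cells in control, UIR and UUO, 52.5%, 43.3% and 4.98% of CD-P cells and 60.4%, 41.8% and 19.3% of CD-I cells. The clusters that each held at least 30% of a class's control cells were therefore compared on their own, a choice made after the levels were seen. Only UIR had enough cells there. Of the 23 pairs higher in UIR in these 4 classes, 12 could be tested in these cells, of which 4 passed and 8 did not, and 11 had too few UMIs. Jun in LOH read 169 and 132 CPM in UIR and UIR1 against 92.8, 49.2, 209, 60.8 and 142 in the controls (log2 fold change 0.38, adjusted p = 0.68). Junb in LOH read 126 and 32.0 CPM against 3.32 to 58.8, a log2 fold change of 1.66 ± 0.51 that did not pass (adjusted p = 0.11). Jund in LOH read 155 and 132 CPM against 162 to 242, and Klf6 38.7 and 27.4 against 24.6 to 40.1. In the other LOH clusters of the same 2 libraries, Jun read 554 and 492, Jund 808 and 635 and Klf6 280 and 259 CPM. The high UIR levels of Jun, Jund and Klf6 in LOH were thus read in clusters that few control cells entered. Cells of all groups were clustered together, so UIR cells in a control cluster are those most like control cells in other genes. Levels near those of controls were favoured there by this choice of cells.

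The other distal classes showed the same split to different degrees. In DT, Jun read 30.6, 139 and 202 CPM in UIR cells of the control clusters and 307, 251 and 490 in the other clusters, and neither Jun (1.17 ± 0.46, adjusted p = 0.124) nor Klf6 (0.80 ± 0.41, adjusted p = 0.25) passed in the former. In CD-P, Jun read 99.1, 151 and 33.9 CPM in the former and 513, 491 and 424 in the latter, and still rose against controls in the former (1.88 ± 0.43, adjusted p = 0.00596). CD-I was the exception. There Jund read 1017, 891 and 975 CPM in UIR cells of the control cluster, against 399 to 550 in the 4 controls with enough cells, and 766, 683 and 756 in the other clusters. In that cluster Junb (2.62 ± 0.49), Jun (1.41 ± 0.35) and Jund (0.98 ± 0.18) rose, with adjusted p-values of 0.00103, 0.0081 and 0.00114. In these clusters 0 of 4 members tested were higher in LOH by edgeR (2 at an unadjusted p under 0.05, of which Jund was lower), against 0.91% of all genes, 0 of 3 in DT (1 at an unadjusted p under 0.05) against 6.31%, 1 of 8 in CD-P against 2.61% and 3 of 3 in CD-I against 12.3%. Fewer cells and genes could be tested there than in the whole classes.

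Whether a class differed from the rest was tested directly, as the injury effect in that class minus the mean effect over the 8 others, with the library as a block. Of 90 pairs, which include 9 of Fosb and 3 others too low to be tested within their class, 10 were higher and 11 lower in UIR (2.75% and 6.08% of all genes and classes), and 13 were higher and 15 lower in UUO (3.54% and 4.73%). Every higher pair was in LOH, DT, CD-P or CD-I. The differences of a gene balance over the classes by construction, so values above the rest in some classes bring values below it in others. Within a class, Jun in macrophages was the only pair called lower in either injury. Jun stood out in CD-P, by 2.69 in UIR and 3.22 in UUO on the log2 scale, Junb in DT (2.29 and 2.46) and LOH (1.44 and 1.45), Jund in LOH (1.17 and 1.09) and Klf6 in LOH (1.58 and 1.66) and DT (1.32 and 1.53). The call of Junb in LOH was lost in UIR without AN1 (1.22, adjusted p = 0.0722) and in UUO without Ctrl, AN1 or UUO1 (from 1.22 to 1.31, adjusted p from 0.0614 to 0.106). The effect was lower than elsewhere in macrophages for Jun (-2.36 and -2.47) and Klf6 (-1.51 and -1.75), and in Endo for Jun (-1.39 and -1.62) and Klf6 (-1.34 and -1.69). CD-P took the opposite side for Junb (-1.31 and -1.31), where N2 was high, and did so without N2 (-1.04 and -1.03). Egr1 in frTEC (-3.42 and -4.08) rested on AN2, 1 of the 2 control pools, at 345 CPM, and turned to 0.71 and 0.045 without it. With cells over 15% mitochondrial UMIs left out, only LOH, DT, PT, Endo and Macro kept 2 pools or more in each group, and an effect is then read against the 4 other classes. Of 50 pairs there, 3 were higher and 4 lower in each injury, against 2.01% and 3.4% of all genes and classes in UIR and 2.38% and 1.78% in UUO. Jun in DT (1.76 and 1.87), Klf6 in DT (1.97 and 2.38), Jund in LOH (1.09 and 1.16) and Endo (-0.57 and -0.75), Jun in Macro (-1.74 and -1.65) and Klf6 in Macro (-1.11 and -1.16) and Endo (-1.15 and -1.28) were still called. Junb in LOH (0.22 and 0.34) and DT (2.35 and 2.53), Klf6 in LOH (0.60 and 0.93) and Jun in Endo (-0.63 and -0.68) were not.

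**Figure D4:**
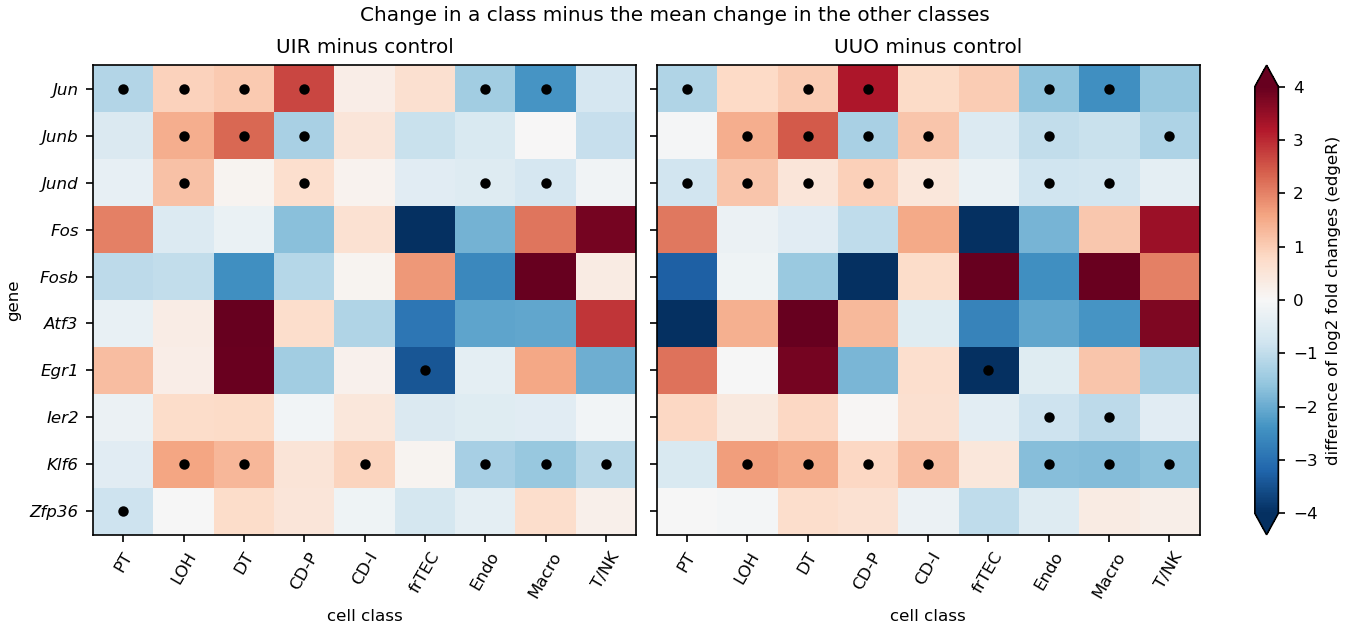
Difference between the log2 injury effect in a class and the mean effect over the 8 other classes, for each member (rows) and class (columns), in UIR and UUO. Dots mark adjusted p-values under 0.05. Red squares with dots stand in LOH, DT, CD-P and CD-I and blue ones mostly in Endo, Macro and PT.

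Counted per cell rather than per pool, with each cell thinned to 1000 UMIs, the mean number of the 10 members detected in a LOH cell was 0.506 ± 0.165 in control libraries (SD, n = 5), 1.41 ± 0.120 in UIR and 1.60 ± 0.0815 in UUO (n = 3 each). In CD-I it was 0.701 ± 0.235, 1.47 ± 0.107 and 1.99 ± 0.177. Endo cells stayed near 1 member, at 1.02 ± 0.0461, 0.996 ± 0.221 and 1.11 ± 0.168. Thinning left out 38 of 286 control, 668 of 1997 UIR and 301 of 856 UUO LOH cells as too shallow. The share of LOH cells with a Jun UMI was 11.6% ± 6.0 in controls, 34.2% ± 4.88 in UIR and 40.1% ± 4.63 in UUO, and for Klf6 it was 2.20% ± 2.34, 21.7% ± 2.51 and 26.5% ± 7.60. Free RNA was not subtracted from these shares, and empty droplets held 18.2 to 45.6 CPM of Jun in controls against 63.6 to 177 in injured libraries and 5.68 to 29.4 against 40.3 to 156 of Klf6, so its part in the difference between groups was not tested. T/NK cells, the lowest class for Jun in controls, had a Jun UMI in 2.74% ± 2.52, 2.23% ± 0.626 and 1.92% ± 1.10 of cells. Without thinning, the Jun shares were 29.3% ± 12.3, 54.3% ± 7.08 and 56.0% ± 5.91 in LOH and 7.24% ± 7.68, 7.3% ± 1.32 and 6.02% ± 1.49 in T/NK, with median depths by library of 1331 to 5614 and 3010.5 to 5417 UMIs. At 1000 UMIs per cell, cells with at least 5 members were rare, at 0.323% ± 0.721 of LOH cells in controls, 1.03% ± 0.452 in UIR and 2.48% ± 1.51 in UUO. Among CD-I cells they made up 5.12% ± 2.66 in UUO and 1.36% ± 1.60 in UIR. No such CD-I cell was found in the 5 control libraries, 0 of 177 in all. By counting error alone, without the spread between libraries, this allows up to 1.69% of cells with 5 members detected at that depth. It does not limit the share at greater depth. Without thinning, 18.2% and 20.8% of frTEC cells in Ctrl and AN2 held at least 5 members, against 0% in both at 1000 UMIs.

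**Figure D5:**
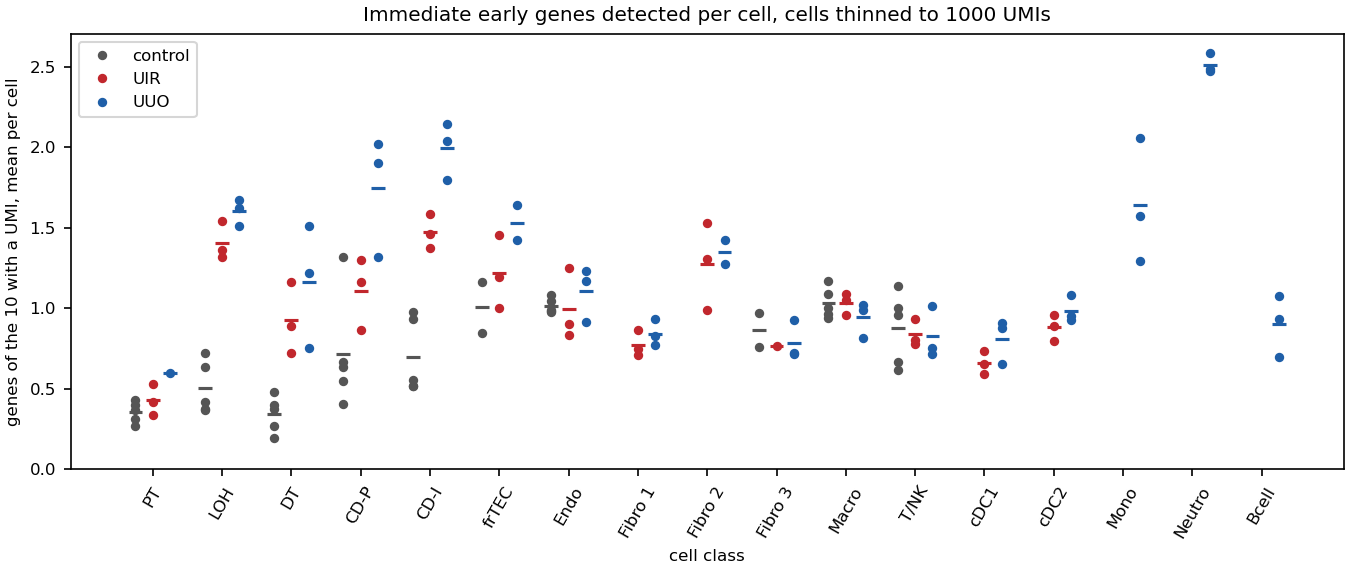
Mean number of members with at least 1 UMI per cell, each cell thinned to 1000 UMIs, for every class and library (points), with group means as lines. Injured LOH, DT and CD-I libraries lie above the controls of their class, in CD-P the control N2 reaches into the injured range, the groups overlap in Endo, Macro and T/NK, and neutrophils, present in UUO pools only, are the highest.

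Few differences between UUO and UIR kidneys passed the test. Over 13 classes, 113 pairs were tested and 1 was called higher in UUO, against 0.446% of all genes in these classes, and 0 lower by edgeR. Higher pairs ran from 0 to 4 with single libraries left out and from 0 to 15 under other settings, and lower pairs from 0 to 1 and from 0 to 2. At an unadjusted p under 0.05, 25 pairs were higher in UUO and 4 lower, where 4.12% and 5.09% of all genes were. The pools of the injuries did not overlap in 22 pairs higher in UUO and 2 lower (9.1% and 6.36% of all genes). These 22 were spread over 9 classes, with 5 of them in CD-I and 4 each in frTEC and PT, while LOH, Endo, Macro and cDC1 had none, and the 2 lower ones were Jun in T/NK (-0.49) and Atf3 in Macro (-0.50). The UUO pools of PT held 35, 26 and 82 cells and the frTEC pool of UUO2 held 23, so ranges there can rest on few UMIs. The call was Klf6 in CD-P, with 266, 203 and 271 CPM in UIR and 377, 336 and 461 in UUO (0.65 ± 0.16, adjusted p = 0.0328). It was lost without N2, AN1, UIR1, UIR2, UUO or UUO2 (from 0.54 to 0.70, adjusted p from 0.0513 to 0.211). Jun in CD-P (0.71 ± 0.28) and CD-I (0.67 ± 0.24) and Klf6 in CD-I (0.70 ± 0.19, adjusted p = 0.0712) were among those whose ranges lay apart without passing.

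Some classes had too few control cells for a pool, and their levels are given without a comparison to controls. Neutrophils of the 3 UUO libraries held 537, 503 and 375 CPM of Jun, 1240, 1175 and 1047 of Junb and 559, 451 and 344 of Klf6. Monocytes of the same libraries held 709, 427 and 512 CPM of Junb and 381, 174 and 350 of Fos. Among stromal cells, Fibro 2, which carries contractile markers, held Fos at 461, 280 and 255 CPM in UIR and 759, 139 and 345 in UUO. Fibro 1, which carries collagen markers, held Fos at 10.4 to 109 CPM over both injuries. A cluster led by Psca and Mmp7, with 267 UIR, 395 UUO and 0 control cells, was left unnamed. Its pools held Jun at 445 to 714 CPM, Jund at 851 to 1175, Junb at 202 to 391 and Klf6 at 282 to 602.

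Other genes of the pathway were read from lists. Of 30 other immediate early genes, 21 were tested in LOH, of which 15 were higher and 2 lower in each injury, with a median log2 fold change of 1.49 in UIR and 1.88 in UUO against 0.02 for all genes in both. Of all genes in LOH, 14.8% were higher and 15.1% lower in UIR, and 15.3% and 15.4% in UUO, to be set beside each LOH count of a list. In Endo, 4 of 25 were higher and 1 lower in UIR (1.1% and 0.886% of all genes), and 6 and 5 in UUO (5.89% and 6.57%). Socs3, an inhibitor of cytokine signalling, rose by 5.73 ± 0.61 in LOH of UIR and 6.24 ± 0.57 in UUO, and Klf4 by 4.97 ± 0.39 and 5.12 ± 0.39. Among 14 other AP-1 family genes, Fosl2, a further Fos paralog, rose in LOH (3.94 and 4.21), CD-P (1.62 and 2.20), frTEC (1.87 and 2.25), Endo (1.36 and 1.83) and Macro (3.57 and 2.62) in both injuries, while Maf fell in LOH (-1.20 and -1.59). The list as a whole did not follow: 2 of 9 tested were higher and 1 lower in LOH in UIR, and 1 and 1 in UUO. Of 10 other Krüppel-like factors tested in LOH, 8 were higher and 2 lower in each injury, as in DT, and 6 of 9 were higher and 0 lower in CD-P in each (the edgeR test). The list went the other way in Endo of UUO, where 4 of 9 were lower and 0 higher, with a median of -0.40, and it had 0 calls of 9 in Endo of UIR and 0 of 8 in Macro in each injury.

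Of 24 kinases and factors upstream of immediate early genes tested in LOH, 7 were higher and 2 lower in UIR, and 6 and 2 in UUO, with medians of 0.10 and 0.08. Rps6ka1, a MAP kinase target kinase, rose by 2.09 and 2.21 there, and Map2k6, which activates p38, fell by 1.69 and 2.33 on the log2 scale. Of 9 phosphatases and inhibitors of MAPK signalling tested in LOH, 2 were higher and 1 lower in each injury. Dusp8 rose in LOH (2.22 and 2.30), while Dusp1, itself an immediate early gene, fell by 1.95 ± 0.34 in DT of UUO and by 1.28 ± 0.27 in PT of UIR. Of 12 heat shock genes, Hspb1 rose in LOH (2.65 and 2.96) and CD-P (4.13 and 4.57), and Hspa1a, the inducible HSP70, fell in CD-P by 0.95 and 1.38. The heat shock list had 2 higher and 3 lower in LOH in UIR and 2 and 4 in UUO. Of 5 textbook AP-1 targets tested in LOH, 1 was higher and 2 lower in UIR and 2 and 2 in UUO. Spp1, which codes for osteopontin, rose by 2.57 ± 0.15 in UIR and 2.71 ± 0.15 in UUO, and Ccnd1, which codes for cyclin D1, fell in UIR by 2.20 ± 0.22. Spp1 was also among the markers used to name frTEC. Of the Zfp36 family and cytokine genes with AU-rich elements, 1 of 2 tested in LOH was higher in each injury, and in DT 4 of 5 were higher and 1 lower in each (17.2% and 17% of all genes in UIR, 21.1% and 20.6% in UUO).

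Over all classes together, 6.96% of genes were higher and 6.56% lower in UIR, and 8.26% and 8.37% in UUO. Of the pairs of a listed gene and a class tested by edgeR, the other immediate early genes had 60 of 202 higher and 14 lower in UIR and 73 of 217 and 22 in UUO. The other Krüppel-like factors had 29 of 80 higher and 5 lower in UIR and 31 of 85 and 8 in UUO, and the textbook AP-1 targets 20 of 59 and 8, and 24 of 63 and 9. The Zfp36 family and cytokine genes had 14 of 37 higher and 2 lower in UIR and 12 of 40 and 2 in UUO. The other AP-1 family genes had 10 of 84 higher and 5 lower in UIR and 12 of 92 and 5 in UUO, and the upstream kinases and factors 21 of 206 and 9, and 28 of 223 and 7. The phosphatases and inhibitors had 8 of 78 higher and 8 lower in UIR and 11 of 85 and 7 in UUO, and the heat shock genes 11 of 107 and 13, and 10 of 118 and 19. A gene counts once for each class it was tested in, so these pairs are not independent. Lists may also share genes, as Klf4, named among the immediate early genes, is a Krüppel-like factor. The counts of different lists are therefore not separate.

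As a description of likeness, the correlation of log2(CPM + 1) was taken over 136 pools of 17 classes after each class mean was removed, among 7116 genes. The pools share libraries and depth, so no p is given. Differences between control, UIR and UUO pools were not removed, so genes that change with injury as a member does were favoured. The genes most like Jun were Klf2 (r = 0.765), Rhob (0.762) and Pmaip1 (0.739), and those most like Klf6 were Ptbp3 (0.862), Rhob (0.860) and H2-D1 (0.859). H2-D1 also led for Junb (0.805), with Gnai2 (0.795) and Ly6e (0.788), and Ywhah (0.832), Rhoa (0.811) and Clic1 (0.801) were the most like Jund. The Fos values were lower, with Pvrl2 (0.586), Cldn3 (0.570) and Tmem158 (0.563), as were those of Egr1, with Bst2 (0.615), Cxcl16 (0.583) and Adamts1 (0.575). Atf3 had Gbp2 (0.704), S100a6 (0.654) and Cd14 (0.641), Ier2 had Rhoa (0.731), Gnb1 (0.685) and Tmsb10 (0.685), and Zfp36 had Pgd (0.637), Dapp1 (0.613) and Eif4ebp1 (0.608). Fosb, with a mean of 2.49 CPM, had no gene above 0.412 (Dmrt2).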

How the data were processed

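Gene by droplet UMI counts of 11 kidney libraries were analysed as deposited. Per the labels, the authors ran 10x libraries through Cell Ranger 3.1.0 against mm10, whereas the methods of the study name another version of Cell Ranger and further remove free RNA and doublets. The files hold raw counts with empty droplets, so none of those later steps is in them, and free RNA stays in the main values. Total UMIs per library ran from 49503312 to 117043590, and precision is set by the UMIs of a pool and by the number of libraries.

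Barcodes were called as cells per library if their UMIs passed a cutoff from the 3000 deepest barcodes (their 99th percentile divided by 10), or if they had 500 UMIs or more and differed from the barcodes ranked 45000 to 90000 (10000 simulations, adjusted p of 0.01), which gave 86534. Barcodes with over 30% mitochondrial or 5% hemoglobin UMIs or under 200 genes were removed (42261 exceeded the mitochondrial limit, from 3.15% of called barcodes in a UUO library to 78.8% in a control), as were the 7.5% most doublet-like, 3291 in all. Leiden clustering (leidenalg 0.10.2, scikit-learn 1.9.0, numpy 2.4.6, scipy 1.17.1, Python 3.11.15) left out the members, the listed genes and the markers. Of 40588 cells, 35447 were in the classes analysed and 4355 were in clusters left unnamed because their leading genes went against the name or too few markers were found. Podocytes and urothelial cells were not used here. Names rebuilt in this way may differ from those of the study.

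Pools of at least 20 cells were fitted per class with edgeR 4.0.16 (R 4.3.3, TMM, filterByExpr, quasi-likelihood test, Benjamini-Hochberg over all genes tested, threshold 0.05), with control, UIR and UUO in one model. Separate models with the library as a block compared classes within controls and injury effects between classes. The fits were tested on simulated counts. Alternatives were DESeq2 1.42.0, RLE factors, no filter, other limits on cells and pools, subtraction of free RNA, mitochondrial genes left out, control batches or single libraries left out, a replicate block, other thinning, and, added after the data were seen, the Psca and Mmp7 cluster counted as LOH and only the clusters of most control cells. Figures used matplotlib 3.10.9. The methods of the study name 3 mice for each injury and 5 naive mice, as many as there are libraries, so p-values measure the spread between libraries taken as mice.

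The members and the lists of other genes were chosen with earlier results of these data known. The members were tested in every class with enough pools, and the text gives the values of those called and of the groups or classes set beside them. It gives from each other list at most 2 genes per class and contrast with the largest change among those past the threshold. For likeness, the 3 genes with the highest correlation were named among those with a mean of at least 20 CPM. The Psca and Mmp7 cluster was singled out after its values were seen. UIR and UUO libraries share numbers in their titles (none, 1 and 2). Deviations of same-numbered pools from their group means correlated by a median over classes of 0.463, 0.254 and 0.0495. Medians of differently numbered pools ran from -0.461 to 0.380. Libraries UIR and UIR1 correlated best with the same-numbered UUO library, and UIR2 with UUO1. Deviations balance within a group, so these values are not independent. The labels do not state pairs, and these values do not settle it. The main fit took the libraries as unpaired.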

Additional observations from a re-analysis of the deposited data

Results flagged for a closer look

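Among 69 sets of 5 control pools of a member in a class, 12 held 1 pool far from the others by Dixon's gap test at the 95% level, where chance gives about 1 in 20 and 6.8% of the 79108 sets over all genes tested in these classes were apart. In 9 of them the pool was the highest and came from N2, as in 1% of the sets over all genes. In CD-I, N2 stood apart for Atf3 (49.5 CPM, others 0 to 8.39), Egr1 (149 CPM, others 0 to 26.1). In CD-P, N2 stood apart for Atf3 (7.35 CPM, others 0 to 1.45), Egr1 (805 CPM, others 2.2 to 82.1), Fos (221 CPM, others 13.2 to 27.4), Ier2 (180 CPM, others 36 to 49.1), Junb (360 CPM, others 83.5 to 115). In DT, N2 stood apart for Egr1 (15.4 CPM, others 0 to 2.78). In LOH, N2 stood apart for Egr1 (224 CPM, others 12.7 to 67.9). The rest were Jun in CD-P of Ctrl (67.7 CPM, others 8.71 to 18), Fos in DT of N1 (40.6 CPM, others 0 to 7.72), Junb in Macro of AN2 (209 CPM, others 117 to 137).

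The injury effect in a class differed from the mean effect over the other classes for 7 members in part of the classes, by edgeR's quasi-likelihood test of that difference at an adjusted p under 0.05. The values are log2 differences. They balance over the classes of a gene by construction, so a negative value does not show a fall within that class. For Jun in UIR it was 2.69 in CD-P, 1.06 in DT, -1.39 in Endo, 0.92 in LOH, -2.36 in Macro and -1.17 in PT. For Jun in UUO it was 3.22 in CD-P, 1.01 in DT, -1.62 in Endo, -2.47 in Macro and -1.21 in PT. For Junb in UIR it was -1.31 in CD-P, 2.29 in DT and 1.44 in LOH. For Junb in UUO it was 1.11 in CD-I, -1.31 in CD-P, 2.46 in DT, -0.97 in Endo, 1.45 in LOH and -1.23 in T/NK. For Jund in UIR it was 0.68 in CD-P, -0.51 in Endo, 1.17 in LOH and -0.68 in Macro. For Jund in UUO it was 0.45 in CD-I, 0.95 in CD-P, 0.48 in DT, -0.81 in Endo, 1.09 in LOH, -0.75 in Macro and -0.76 in PT. For Egr1 in UIR it was -3.42 in frTEC. For Egr1 in UUO it was -4.08 in frTEC. For Ier2 in UUO it was -0.84 in Endo and -1.04 in Macro. For Zfp36 in UIR it was -0.84 in PT. For Klf6 in UIR it was 0.89 in CD-I, 1.32 in DT, -1.34 in Endo, 1.58 in LOH, -1.51 in Macro and -1.10 in T/NK. For Klf6 in UUO it was 1.24 in CD-I, 0.82 in CD-P, 1.53 in DT, -1.69 in Endo, 1.66 in LOH, -1.75 in Macro and -1.63 in T/NK.

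Some of these calls were lost when 1 library was left out, with the values given here without it. In UIR, the threshold was no longer passed by Jun in LOH without N1 or AN2 (0.84 to 0.86), by Zfp36 in PT without N1, UIR, UIR1 or UIR2 (-0.88 to -0.63), by Junb in LOH without AN1 (1.22) and by Egr1 in frTEC without AN2 (0.71), which leaves that class 1 control pool. It was also not passed by Jund in Endo without UIR1 (-0.50) and by Jun in DT without UIR2 (0.95). In UUO, the threshold was no longer passed by Jun in DT without Ctrl, N2 or UUO (0.79 to 0.99), by Junb in CD-I without Ctrl, N1, AN1, AN2 or UUO2 (0.87 to 1.16), by Junb in LOH without Ctrl, AN1 or UUO1 (1.22 to 1.31) and by Junb in T/NK without Ctrl (-0.91). It was also not passed by Jund in DT without Ctrl (0.34), by Jund in PT without Ctrl, UUO or UUO1 (-0.64 to -0.52), by Ier2 in Endo without Ctrl, UUO or UUO1 (-0.73 to -0.69) and by Ier2 in Macro without Ctrl, N1, AN1, AN2, UUO or UUO1 (-1.10 to -0.75). It was also not passed by Jun in PT without N1, AN1, UUO or UUO1 (-1.14 to -0.997), by Junb in Endo without N1, AN1, UUO or UUO1 (-0.93 to -0.84), by Jund in CD-I without N1, N2, AN1, UUO or UUO1 (0.40 to 0.47) and by Egr1 in frTEC without AN2 or UUO (-3.39 to 0.045). It was also not passed by Klf6 in CD-P without UUO2 (0.58). With cells over 15% mitochondrial UMIs left out, 5 classes could be fitted, and of these effects Jun in DT and Macro, Jund in LOH and Endo and Klf6 in DT, Endo and Macro were still called in both injuries. The rest of those fitted did not pass and kept their sign.

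Empty droplets served to call cells and to subtract free RNA, and are not in the pools of the main comparisons. Of the 16275 genes with at least 10 UMIs there, 19.8% were higher in each of the 6 injured libraries than in any of the 5 controls. So were 7 of the 10 members. Their levels in controls against injured libraries were 0.384 to 5.8 against 7.67 to 28.3 CPM for Atf3, 1.05 to 9.64 against 19.6 to 112 CPM for Egr1, 1.11 to 7.88 against 11.7 to 48.6 CPM for Fos, 3.26 to 11.1 against 17.4 to 83.8 CPM for Ier2, 18.2 to 45.6 against 63.6 to 177 CPM for Jun, 4.75 to 13.1 against 50.02 to 183 CPM for Junb, 5.68 to 29.4 against 40.3 to 156 CPM for Klf6. With this free RNA subtracted from each pool, 27 pairs were higher in UIR and 29 in UUO than in controls (6.32% and 7.61% of all genes).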

How the results depend on the processing

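The 170 pairs called in the main fits were recomputed under the alternatives, which gave 2921 values. Of these, 2678 kept direction and side of the threshold, 235 lost the call and 8 changed sign. Pairs not called in the main fits are not in this tally, so calls gained do not show there. Under settings other than leaving out a library, higher pairs ran from 4 to 44 in UIR and from 10 to 45 in UUO. With single libraries left out, pairs higher in UIR ran from 24 to 36 and lower from 1 to 4, those in UUO from 26 to 39 and 1 to 4, and UUO against UIR from 0 to 4 and 0 to 1. Without Ctrl, 4 and 4 pairs were lower in UIR and UUO. In controls Fos in frTEC ran from -5.44 (without AN2) to 4.44, and the class-specific effect of Egr1 in frTEC from -4.83 to 0.71 in UIR and from -5.49 to 0.045 in UUO. Without a filter on low counts, 4 pairs were lower in UIR, 4 in UUO, 15 higher and 2 lower in UUO against UIR, and 24 class-specific effects were lower in UIR. Where no share of all genes stands beside a count in this section, no background is given for that fit. Such a count does not show whether the members went beyond other genes. DESeq2 gave 2, 2 and 2 for lower in UIR, lower in UUO and higher in UUO against UIR, and fits without doublet removal gave 2, 2 and 5, with 1 lower in UUO than UIR. UUO against UIR further gave 1 lower with at least 1000 UMIs per cell, 0 higher with 50 cells per pool, 1 lower without mitochondrial genes, and 3 higher and 1 lower at a limit of 50%. In a fit of the 6 injured libraries, 0 pairs were higher in UUO without a block. With the number in the titles as a replicate block, 9 were higher and 1 lower. Libraries UIR and UIR1 correlated best with the same-numbered UUO library, but UIR2 did so with UUO1 (0.380). Whether the numbers mark pairs was not settled. Only the clusters of most control cells, an alternative chosen after seeing the data, left 4 pairs higher and 0 lower in UIR, and Jund in LOH turned to -0.53. At a mitochondrial limit of 15%, which left fewer cells, 11 and 10 of 44 pairs were higher in UIR and UUO (4.11% and 5.59% of all genes) and 0 in UUO against UIR. Over the 5 classes left, 3 class-specific effects were higher and 4 lower in UIR (2.01% and 3.4% of all genes) and 3 and 4 in UUO (2.38% and 1.78%), and 19 of 45 pairs were higher and 9 lower in a control class (22.2% and 13.6% of all genes). The sign changed there in controls for Jun in PT (-0.38), Junb in LOH (0.27), Jund in DT (0.029), Klf6 in LOH (0.20), and for no class-specific effect that could be fitted. Besides those given with each gene, pairs past the threshold only without a library were in UIR Egr1 in frTEC without Ctrl (-2.08), Fos in DT without N1 or UIR (2.0 to 2.75), Fos in frTEC without Ctrl (-2.32), Zfp36 in PT without Ctrl, AN2 or UIR2 (-0.87 to -0.73), and in UUO Egr1 in Endo without UUO1 (1.38), Egr1 in frTEC without Ctrl (-2.51), Fos in CD-P without UUO1 (1.57), Fos in frTEC without Ctrl (-2.71), Jund in Macro without Ctrl or UUO (-0.53 to -0.47), Zfp36 in DT without UIR2, UUO1 or UUO2 (1.005 to 1.26). Members per cell in control, UIR and UUO were 1.46, 3.03 and 2.938 in LOH and 2.92, 2.61 and 2.899 in Endo without thinning, and 0.213, 0.695 and 0.8999 and 0.602, 0.542 and 0.581 thinned to 500 UMIs. The causes of these changes were not tested. Low counts limit Fosb in every class and Fos, Atf3 and Egr1 in PT and DT, and frTEC rests on 2 control pools. Without Ctrl or AN2, 1 control pool is left in frTEC and is assumed to vary like the pools of the other groups, so its values there have no replicate check.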
